A study of Mus musculus with 5 samples.

Results

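Expression of 9 genes of haem synthesis and haem breakdown was read in mouse embryonic hearts. They are the haem oxygenase genes Hmox1 and Hmox2 and the synthesis enzyme genes Alas1, Alas2, Alad, Urod, Cpox, Ppox and Fech, out of 23279 named genes on the array. Members were chosen by gene symbol and, within a gene, by brightness, as the probe set with the highest mean level over the 5 arrays. The family itself was selected with its KO and control values known, Hmox1 foremost. Each of the 9 had 1 probe set, and 9 of 9 were bright enough to be tested. The hearts were collected at the E10.5 stage without treatment. There were 2 arrays of hearts with the genotype KO and 3 arrays of hearts with the genotype Control. The title of the series names Lrrfip2, a leucine-rich repeat protein gene, and asks about the response to hypoxia while the heart forms. The labels give neither the allele nor the cell type of the deletion, nor whether the controls were wild type or heterozygous, nor whether a sample was 1 heart or a pool. The spread reported below is therefore that between these 5 samples, which may be partly technical.

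Haem is an iron-containing ring built in steps that run between mitochondria and cytosol. The pathway opens with aminolaevulinate synthase, made by Alas1 in most tissues and by Alas2 in developing red cells. Later enzymes join and reshape the ring, and ferrochelatase inserts iron at the end. Haem oxygenase opens the ring again and releases iron, carbon monoxide and biliverdin; Hmox1 is the inducible form, known to respond to haem, oxidative stress and low oxygen, and Hmox2 is the constitutive form. In the embryo, the circulating red cells carry most of the haem synthesis, so blood held in a dissected heart contributes to the level of these genes.

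Levels are log2 values from robust multi-array averaging (RMA), deposited by the authors, on which 1 unit is a doubling. Differences are KO minus control. The 22 cardiomyocyte markers were all above the dim level of 4.44, with a mean level of 10.7 to 10.9 on every array. Lrrfip2 was at 6.36 and 6.22 in KO replicates 1 and 2, against 7.33, 8.07 and 8.08 in control replicates 1, 2 and 3. The arrays also differed in ways that the genotype label does not give. KO replicate 2 carried endoderm and liver transcripts, with a mean level of 7.87 over 14 tested genes, against 4.63 in KO replicate 1 and 4.64 to 4.74 in the controls. KO replicate 1 had higher macrophage markers, with a mean of 6.22 over 11 tested genes, against 5.41 in KO replicate 2 and 5.41 to 5.53 in the controls. Control replicate 1 was the only array with Y-linked signal, with a mean level of 7.02 over 3 genes against 2.72 to 2.99 on the other 4 arrays.

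Hmox1 was higher in both KO hearts than in any control heart, while most enzymes of synthesis lay at or below the lower end of the control range. In limma, fitted over 13967 genes with Benjamini-Hochberg adjustment, 0 of the 9 members had an adjusted p under 0.05, and this share was 0% of all genes tested. At an unadjusted p under 0.05 there was 1 member, Hmox1, where 8.78% of all genes were that low. The KO and control arrays did not overlap for 4 of the 9, Hmox1 on the higher side and Alad, Urod and Fech on the lower side, against 21.3% of all genes tested (8.18% on the higher and 13.1% on the lower side). The mean was lower in KO hearts for 7 of 9 members and for 55.4% of all genes, with a median difference of -0.22 over the members and -0.015 over all genes. The family was chosen with this contrast known, so these counts describe it and nothing is read from them.

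**Figure D1:**
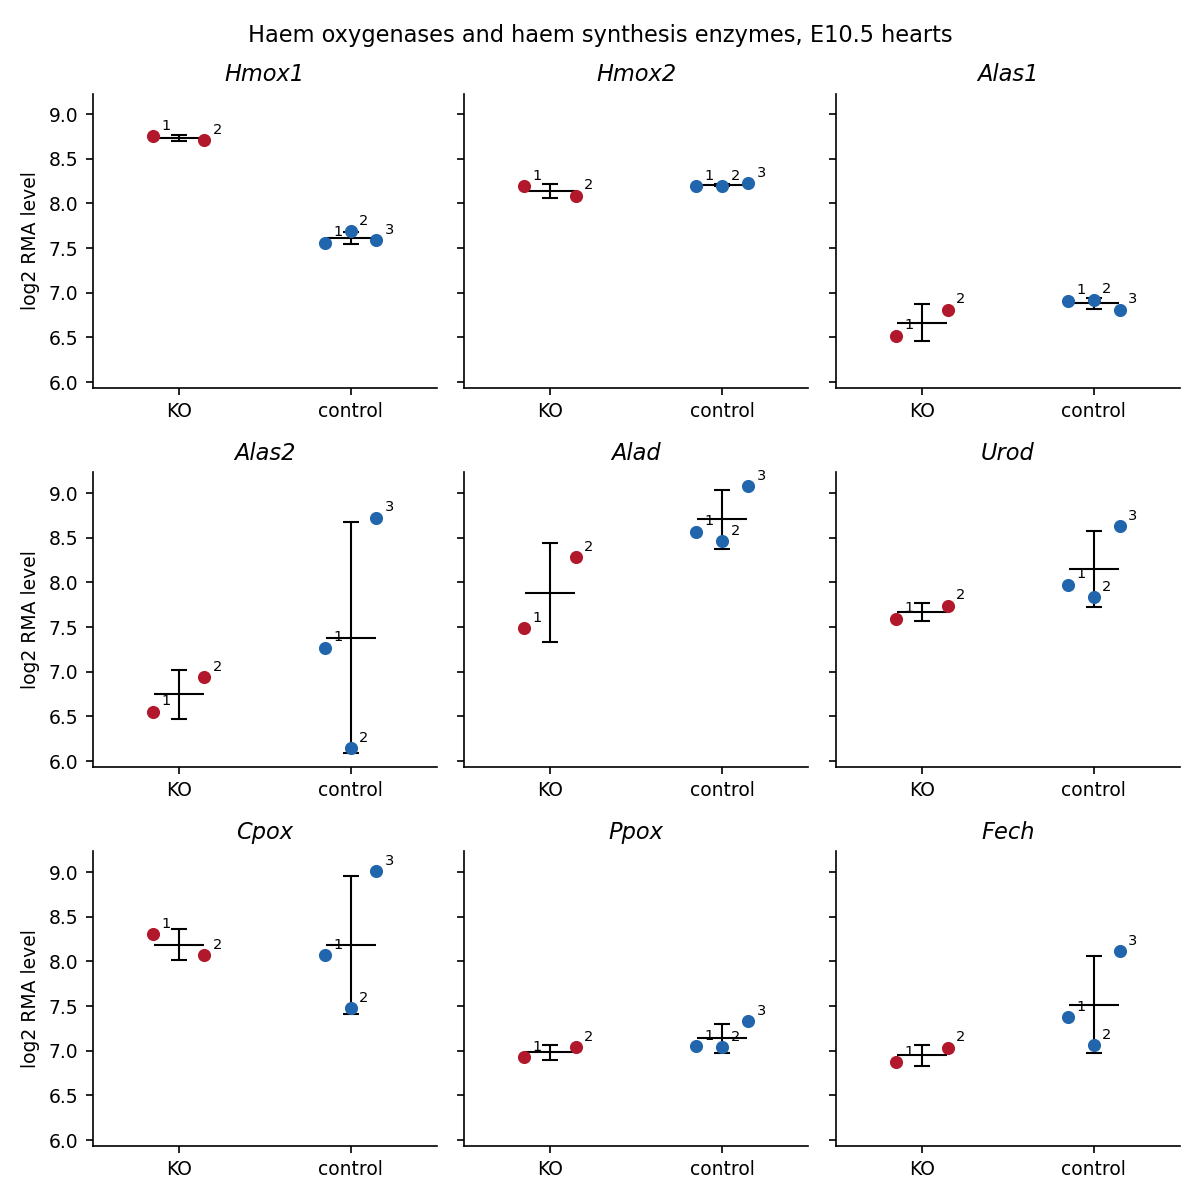
Log2 RMA level (y axis, the same in all panels) of the 9 members in KO and control hearts; points are arrays with their replicate number, and bars are the mean ± SD (n = 2 KO, n = 3 control). Hmox1 lay at 8.71 to 8.75 in KO hearts and 7.56 to 7.69 in control hearts, while the control arrays of Alas2 spread from 6.15 to 8.73.

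Hmox1, which opens the haem ring when it is induced, was at 8.75 and 8.71 in KO replicates 1 and 2, against 7.56, 7.69 and 7.59 in control replicates 1, 2 and 3. Each group kept within 0.13 log2 units and the lowest KO array lay 1.02 above the highest control array. The difference was 1.12 ± 0.055 (SE), or 2.17-fold higher in KO hearts. It was 1.14 without KO replicate 2, the array with endoderm transcripts, and 1.09 without KO replicate 1, the array with macrophage markers. In the fit without KO replicate 2, Hmox1 was 1 of 983 genes with an adjusted p under 0.05; that fit takes the spread of the lone KO array from the control arrays. Macrophages, which take up and degrade haem, are a known site of Hmox1 expression. Of 22 macrophage genes named on the array, 15 were highest in KO replicate 1 and 1 in KO replicate 2, and 11 were bright enough to be tested. Coro1a, a leukocyte actin regulator, was at 7.44 and 5.92 in KO replicates 1 and 2, against 5.94, 5.76 and 5.98 in control hearts. Of 2 further genes, named after their values were seen, Tyrobp was at 7.65 and 5.09 in KO hearts, against 4.85, 5.09 and 5.09 in control hearts, while the defining marker Adgre1 was at 4.15 on all 5 arrays, under the dim level. The KO arrays were 0.81 apart in the macrophage mean and 0.045 apart in Hmox1. With the macrophage mean as a covariate the Hmox1 difference was 1.10 ± 0.068 (SE). That mean is high in KO replicate 1 alone, so this fit nearly repeats leaving that array out and is no separate check. A macrophage source of Hmox1 was not tested.

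Hmox2, the constitutive oxygenase, was at 8.20 and 8.09 in KO replicates 1 and 2, against 8.20, 8.20 and 8.23 in the controls, and 3 of these 5 values were exactly equal. The groups overlapped, and the difference was -0.064 ± 0.047 (SE). The Hmox2 control values spanned 0.027, and 13.1% of the genes tested had a smaller control range.

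The opening step of synthesis is carried by a pair of genes. Alas1, the form used by most tissues, was at 6.52 and 6.81 in KO hearts, against 6.91, 6.92 and 6.81 in control hearts. KO replicate 2 had the same value as control replicate 3, so the groups overlapped, and only KO replicate 1 was lower. The difference was -0.22 ± 0.11 (SE), with -0.36 for KO replicate 1 and -0.07 for KO replicate 2 against the control mean. Alas2, the X-linked erythroid form, was at 6.55 and 6.94 in KO hearts, against 7.27, 6.15 and 8.73 in control replicates 1, 2 and 3. The lowest and the highest Alas2 levels were both controls, 2.58 log2 units or 5.98-fold apart. Its difference of -0.63 ± 0.84 (SE) was smaller than its error, and it was 0.038 without control replicate 3 and -1.25 without control replicate 2. Control replicate 1, the array with Y-linked signal, lay between the other controls for this X-linked gene.

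The middle enzymes shared the order of the control arrays with Alas2, to different degrees. Alad, which joins aminolaevulinate into porphobilinogen, was at 7.49 and 8.28 in KO hearts, against 8.57, 8.47 and 9.08 in control hearts. The groups did not overlap, but the KO arrays were 0.79 apart, further than the 0.61 between the control arrays. The difference was -0.82 ± 0.33 (SE), and it was -0.42 without KO replicate 1 and -1.21 without KO replicate 2. Urod, which trims the side chains of the ring, was at 7.59 and 7.74 in KO hearts, against 7.98, 7.83 and 8.63 in control hearts. The groups were separated by 0.09, less than the 0.15 between the KO arrays, and the difference of -0.48 ± 0.28 (SE) was -0.24 without control replicate 3.

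Cpox, which makes protoporphyrinogen, was at 8.31 and 8.07 in KO hearts, against 8.07, 7.48 and 9.01 in control hearts. The KO arrays lay inside the range of the controls, and the difference was 0.0012 ± 0.50 (SE). It was 0.41 without control replicate 3 and -0.35 without control replicate 2. Ppox, the next enzyme, was at 6.93 and 7.04 in KO hearts, against 7.05, 7.04 and 7.33 in control hearts, with KO replicate 2 equal to control replicate 2 and a difference of -0.16 ± 0.12 (SE). Fech, the ferrochelatase gene, was at 6.87 and 7.04 in KO hearts, against 7.38, 7.07 and 8.11 in control hearts. The gap between the groups was 0.03, and the difference was -0.57 ± 0.35 (SE), or -0.27 without control replicate 3.

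Leaving the knockout aside, the control hearts already differed widely in these enzymes. The range over the 3 control arrays was 2.58 for Alas2, 1.53 for Cpox, 1.05 for Fech, 0.80 for Urod, 0.61 for Alad and 0.29 for Ppox, while the median range over all genes tested was 0.15. Of all genes tested, 99.97% had a smaller control range than Alas2, 99.7% than Cpox and 99.1% than Fech. The ranges of Hmox1 (0.13), Alas1 (0.11) and Hmox2 (0.027) were below that median. In 6 of the 9 members, Alas2, Alad, Urod, Cpox, Ppox and Fech, the controls ran in the order replicate 3 over replicate 1 over replicate 2, an order found in 13% of all genes tested. Control replicate 3 was the highest of the 5 arrays for these 6 and for Hmox2, 7 of 9 members against 21.8% of all genes.

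The markers of red cells followed the same arrays. Of 20 tested erythroid genes that are neither members nor globins, 19 were highest in control replicate 3 and 19 had their lowest control value in replicate 2. Their mean level was 5.48 and 5.58 in KO replicates 1 and 2, against 6.005, 5.55 and 6.95 in control replicates 1, 2 and 3. All 20 had a lower mean in KO hearts (55.4% of all genes), with a median difference of -0.57 that became -0.24 without control replicate 3. For some of the 20, both KO arrays lay at or above control replicates 1 and 2, so their lower mean came from control replicate 3. At an unadjusted p under 0.05 there was 1 erythroid gene, lower in KO hearts (5.49% of all genes), and 6 of the 20 lay below the controls without overlap (13.1% of all genes). Slc4a1, the anion exchanger of the red cell membrane, was at 6.12 and 7.03 in KO hearts, against 7.83, 6.82 and 9.34 in control hearts. In whole hearts, fewer red cells and less of a transcript per red cell cannot be told apart.

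**Figure D2:**
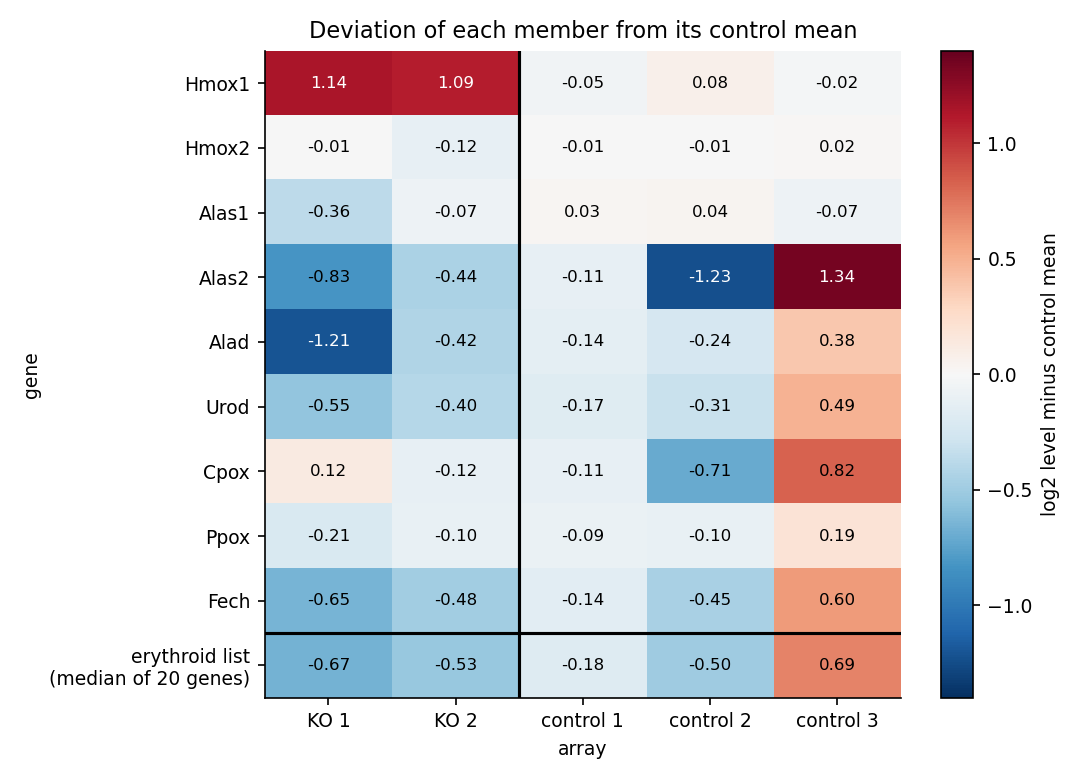
Log2 level minus the control mean of the same gene (colour and printed value) for the 9 members (rows) on the 5 arrays (columns), with the median of 20 erythroid genes in the bottom row. Hmox1 stood at 1.14 and 1.09 in the KO arrays, and Alas2 ran from -1.23 in control replicate 2 to 1.34 in control replicate 3, where the erythroid list was at -0.50 and 0.69.

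The promoters of the 2 members with the widest control ranges are shown because both hold a word bound by GATA factors, the family of the erythroid regulator Gata1. The 250 bases before the annotated start were searched on both strands for AGATAA and TGATAA in the RefSeq promoters of GRCm38.p6, in which 7 of the 9 members were found with 11 starts; Hmox1 and Fech were not searched. A match stood in 2 of these 11 promoters and in 16.6% of all 32851 promoters of that length, and no 2 matches lay in 1 member promoter. In both genes the word begins 86 bases before the start. The plus strand is printed, which is the strand of both genes, with the match in capitals. The Cpox stretch is chr16:58669958-58670207 and the Alas2 stretch is chrX:150547167-150547416.
Cpox: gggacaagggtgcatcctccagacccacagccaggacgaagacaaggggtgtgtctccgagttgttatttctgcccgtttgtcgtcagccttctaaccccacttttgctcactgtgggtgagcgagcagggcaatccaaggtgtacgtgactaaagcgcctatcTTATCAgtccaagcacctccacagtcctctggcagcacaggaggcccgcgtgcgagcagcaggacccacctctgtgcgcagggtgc
Alas2: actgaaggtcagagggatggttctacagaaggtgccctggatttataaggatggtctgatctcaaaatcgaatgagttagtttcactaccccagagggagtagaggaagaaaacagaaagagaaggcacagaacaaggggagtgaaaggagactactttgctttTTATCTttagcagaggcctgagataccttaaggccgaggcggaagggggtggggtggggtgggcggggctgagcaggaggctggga
Cpox carries TTATCA and Alas2 carries TTATCT, the reverse complements of TGATAA and AGATAA. The core ACGTG of the element bound by hypoxia-inducible factors, searched in the same way on both strands, stood in 4 of the 11 promoters, those of Alad, Urod and Cpox, and in 16.6% of all promoters. A match describes these letters and is no evidence of binding.

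Hmox1 was next set against Alas2, taken as a gauge of erythroid content, array by array. Relative to the control mean, KO replicates 1 and 2 stood at -0.83 and -0.44 for Alas2 and at 1.14 and 1.09 for Hmox1. Control replicates 1, 2 and 3 stood at -0.11, -1.23 and 1.34 for Alas2 and at -0.053, 0.076 and -0.023 for Hmox1. Hmox1 therefore kept to a narrow band in the controls while Alas2 varied 5.98-fold, and the Alas2 levels of both KO arrays lay within the control range. The mean of the erythroid genes did not place both there. It was 5.48 in KO replicate 1, below the lowest control at 5.55, and 5.58 in KO replicate 2. With the Alas2 level as a covariate the Hmox1 difference was 1.09 ± 0.056 (SE), and with the mean of the erythroid genes it was 1.08 ± 0.067 (SE), against 1.12 without a covariate.

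**Figure D3:**
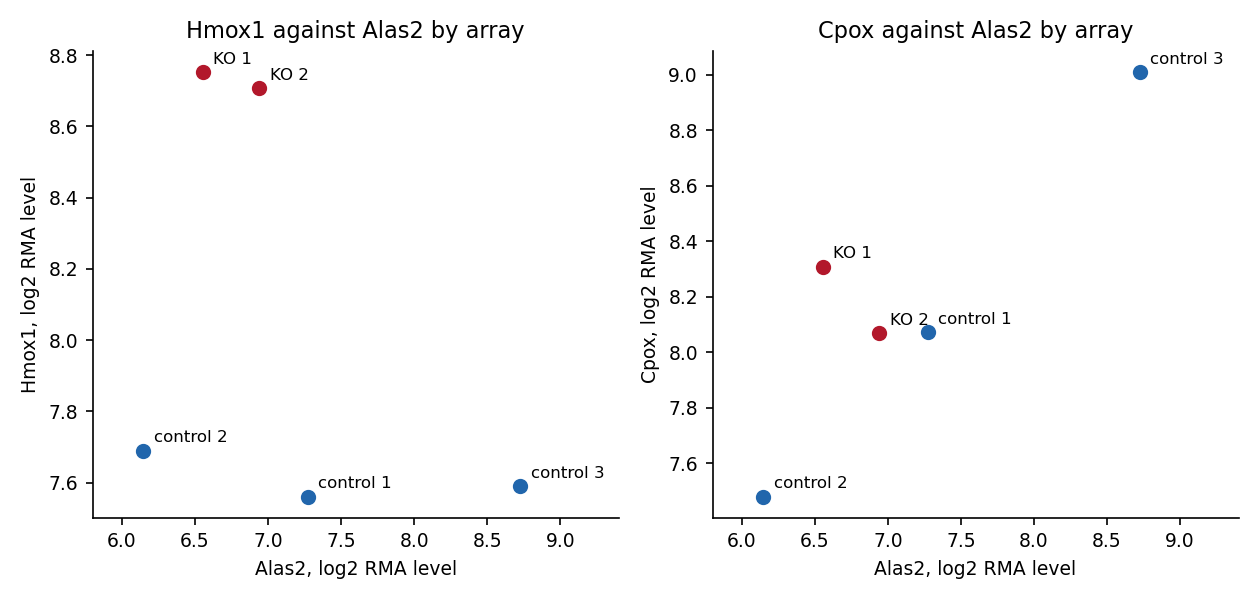
Log2 RMA level of Hmox1 (left) and Cpox (right) against that of Alas2, 1 point per array, KO in red and control in blue; the y axes differ in range and do not start at 0. The KO points lie at 8.71 to 8.75 for Hmox1 and 8.07 to 8.31 for Cpox; control points spread from 6.15 to 8.73 along the Alas2 axis with Hmox1 between 7.56 and 7.69, while their Cpox levels run from 7.48 to 9.01.

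The differences of the enzymes changed under the same covariates, while those of the oxygenases and Alas1 changed little. With the Alas2 level as a covariate, Fech was at -0.30 ± 0.077, Urod at -0.28 ± 0.10, Ppox at -0.080 ± 0.071, Alad at -0.64 ± 0.28 and Cpox at 0.36 ± 0.19 (SE), and Fech was then at an unadjusted p under 0.05. With the erythroid mean as a covariate, Fech went to -0.080 ± 0.060, Urod to -0.098 ± 0.083 and Ppox to -0.012 ± 0.073 (SE). Alad was at -0.50 ± 0.34 (SE). The sign of Alas2 turned, at 0.52 ± 0.18, and Cpox was at 0.68 ± 0.17 (SE). These fits leave 2 residual degrees of freedom among 5 arrays, and no member but Hmox1 had an adjusted p under 0.05 in any fit that was run. Per array, KO replicates 1 and 2, with an erythroid mean of 5.48 and 5.58, had 6.55 and 6.94 for Alas2 and 8.31 and 8.07 for Cpox. Control replicate 2, with an erythroid mean of 5.55, had 6.15 for Alas2 and 7.48 for Cpox, below both KO arrays. Alad, Urod, Fech and Alas1 went the other way, with this control at 8.47, 7.83, 7.07 and 6.92, above both KO arrays. Ppox was at 7.04, equal to KO replicate 2. The comparison rests on this control array alone.

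**Figure D4:**
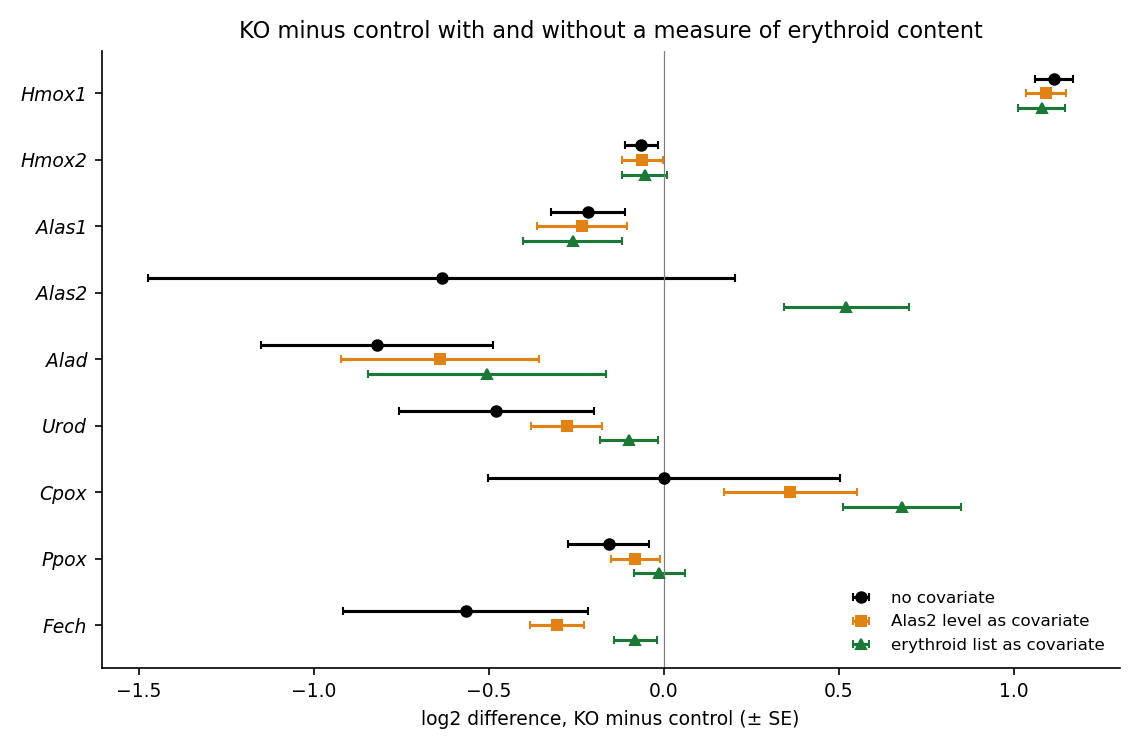
Log2 difference KO minus control with its SE (x axis) for the 9 members (rows) without a covariate, with the Alas2 level and with the mean of 20 erythroid genes as covariate. Hmox1 stays between 1.08 and 1.12, Fech is at -0.57 without a covariate, -0.30 with Alas2 and -0.080 with the erythroid list, and Cpox at 0.0012, 0.36 and 0.68.

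Around these steps, 31 further genes of haem transport, use and control were tested, of which 23 had a lower mean in KO hearts (55.4% of all genes) and 8 a higher one, with a median of -0.16. At an unadjusted p under 0.05 there were 4 lower (5.49% of all genes) and 1 higher (3.29%), with 0 past the adjusted threshold. Eif2ak1, the kinase that slows translation when haem is short, was at 6.98 and 7.12 in KO hearts, against 7.46, 7.46 and 7.44 in control hearts, a difference of -0.41 ± 0.057 (SE). Its control arrays lay within 0.03 of each other. Cox10 and Cox15, which turn haem into the form used by cytochrome oxidase, had differences of -0.33 ± 0.064 and -0.16 ± 0.059 (SE). Flvcr1, a haem exporter, was at 5.59 and 5.58 in KO hearts, against 5.90, 5.98 and 6.19 in control hearts. Tmem14c, which moves porphyrinogens in mitochondria, was at 8.56 and 8.99 in KO hearts, against 9.55, 9.28 and 9.68 in control hearts. For all of these but the haem-binding membrane protein gene Pgrmc1 (0.30 ± 0.10, SE), both KO arrays lay below every control. These 6 genes had the smallest p of the list, a choice that favours groups without overlap. Of the 31 tested, 11 lay below the controls without overlap (13.1% of all genes) and 1 above (8.18%). The biliverdin reductase genes Blvra and Blvrb, which act after haem oxygenase, are named after their values were seen. Blvra was at 7.56 and 7.39 in KO hearts, against 7.56 on all 3 control arrays. Blvrb was at 6.74 and 6.66 in KO hearts, against 6.97, 6.84 and 8.35 in control hearts, so both KO arrays lay below every control.

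Of 16 genes for factors known to act on Hmox1, 11 had a higher mean in KO hearts (44.6% of all genes) and 5 a lower one, with a median of 0.059, and 0 passed the adjusted threshold. At an unadjusted p under 0.05 were Atf4 and Maff, both higher (3.29% of all genes). Atf4, a stress factor that also controls amino acid genes, was at 10.71 and 10.74 in KO hearts, against 10.43, 10.39 and 10.36 in control hearts (0.33 ± 0.040, SE). Maff, a small Maf partner, was at 6.93 and 6.94 in KO hearts, against 6.46, 6.67 and 6.69 in control hearts. The haem-sensing repressor Bach1 differed by 0.29 ± 0.16 (SE), and Bach2 by 0.16 ± 0.081 (SE). The activator Nfe2l2, named after its values were seen, was at 8.50 and 8.49 in KO hearts, against 8.49, 8.41 and 8.49 in control hearts.

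Other genes with antioxidant response elements, the sites that Nfe2l2 and Bach1 share, were tested beside Hmox1. Of 21 tested, 14 had a lower mean in KO hearts, where 55.4% of all genes did, and 7 a higher one, with a median of -0.15. The median was -0.054 without KO replicate 1. At an unadjusted p under 0.05 there were 5 lower (5.49% of all genes) and 1 higher (3.29%), and 0 passed the adjusted threshold. Gclc, which opens glutathione synthesis, was at 6.52 and 6.42 in KO hearts, against 6.79, 6.67 and 6.90 in control hearts. Malic enzyme Me1 (-0.44 ± 0.10, SE) and the glutathione transferase Gsta4 (-0.22 ± 0.053, SE) were also below every control on both KO arrays. These genes were named for their small p, a choice that favours groups without overlap. Of the 21 tested, 9 lay below the controls without overlap (13.1% of all genes) and 2 above (8.18%). Abcc1, an exporter of glutathione conjugates, was the 1 higher gene at an unadjusted p under 0.05. It was at 6.15 and 6.27 in KO hearts, against 5.60, 5.40 and 5.61 in control hearts. Of 27 tested targets of the hypoxia-inducible factors all 27 had a higher mean in KO hearts (44.6% of all genes), with a median of 1.19, and 24 lay above the controls without overlap (8.18% of all genes).

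The genes whose pattern over the 5 arrays lay closest to a member were found by Euclidean distance after each gene was centred on its own mean. Nearest to Hmox1 were Tmem45a (distance 0.24 log2 units), P4ha1 (0.26), Bnip3 (0.32), Egln1 (0.33) and Apoe (0.33). Hmox1 varied little within each group, so this ranking picks genes with a like difference between KO and control. The family was chosen with that contrast known, so shared regulation is not read from these genes. P4ha1, a collagen prolyl hydroxylase gene, was at 8.87 and 8.67 in KO hearts, against 7.55, 7.58 and 7.80 in control hearts. Nearest to Alas2 were Ermap (0.30), Pklr (0.37), Kel (0.62), Slc25a37 (0.64) and Ank1 (0.68). Pklr, which encodes pyruvate kinase of red cells and liver, was at 4.79 and 5.15 in KO hearts, against 5.37, 4.73 and 7.02 in control hearts. No gene stood on both lists, which follows from how far apart the patterns of Hmox1 and Alas2 lie and is no separate result.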

How the data were processed

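The data are 5 Affymetrix arrays of embryonic hearts, 2 KO and 3 control, grouped by the genotype label. Per the labels' protocols, RNA was extracted with Trizol and labelled with the GeneChip WT Plus kit. Per the submitters' processing notes, the deposited log2 values were made by the authors with Affymetrix Expression Console and RMA; their versions were not stated in the sources used. Raw signals were not used, so signal over background is unknown, and precision is limited by the number of arrays.

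Of 24479 probe sets, 23281 had 1 symbol, 0 several and 1198 none; 23156 were found by Entrez number in a RefSeq table of GRCm38.p6, from which symbols were taken. The brightest set was kept for each of 23279 genes. Genes under the 40th percentile of the mean (4.44) were left out, leaving 13967. KO was compared with control by a two-sided moderated linear model (limma 3.58.1 under R 4.3.3, Benjamini-Hochberg). With 10 splits of 2 against 3, no permutation p can fall below 0.1. The steps were tested on simulated data. Members and lists were chosen with earlier results of these data known; lists are described by counts and medians, with no set test. Other genes named are, by rule, those with the smallest p in a list (6 or 4), the 4 brightest of a marker list, the 5 nearest to Hmox1 and Alas2, and Lrrfip2. Outside this rule, Tyrobp, Adgre1, Blvra, Blvrb and Nfe2l2 were named after their values were seen. Exact ties between arrays occurred in 54.8% of genes tested and in 3 members, and their source was not tested.

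Alternatives concerned the dim filter, normalization, centring, probe sets, the variance prior, array weights, covariates and leaving out each array. Leaving out each array for the medians of 4 lists was added after seeing the data.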

Additional observations from a re-analysis of the deposited data

How the results depend on the processing

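The Hmox1 difference kept its sign and moved by less than the spread between replicates under all 17 alternatives. It was 1.09 to 1.15 when each array was left out and 1.08 to 1.14 otherwise. The dim filter, the mean of probe sets and the variance prior could not move this estimate, so they are no support for it. The Alas2 difference ran from -1.25 to 0.038 when each array was left out and was 0.52 with the erythroid mean as covariate. The count of members with no overlap was 4 to 6 throughout, but leaving out an array cannot lower this count. The shares of all genes without overlap or at an unadjusted p under 0.05 were counted in the main fit only. Nothing is therefore read from the member counts given here for other fits. Members at an unadjusted p under 0.05 numbered 1 to 3 when each array was left out. They numbered 2 after centring on array medians (Hmox1 and Alad), with the Alas2 level (Hmox1 and Fech), the erythroid mean (Hmox1 and Cpox) or the macrophage mean (Hmox1 and Hmox2) as covariate, and 3 with the endoderm mean (Hmox1, Alas1 and Alad). All genes past the adjusted threshold numbered 0 to 983 when each array was left out, with 983 without KO replicate 2 and 9 without KO replicate 1, and 743 with the endoderm mean as covariate. Hmox1 was the only member among them, without KO replicate 2 and with the endoderm mean. That mean is high in KO replicate 2 alone, so its fit nearly repeats leaving that array out. The causes of these shifts were not tested. The median of the other haem genes was -0.23 to -0.14 when each array was left out, that of the Hmox1 regulators 0.024 to 0.074, and that of the genes with antioxidant response elements -0.25 to -0.054. No paired analysis was possible because the labels give no sample number that is shared between the groups.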

Other observations

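Of the globin genes, whose proteins carry haem in red cells, 5 were tested. The embryonic genes Hba-x, Hbb-y and Hbb-bh1 overlapped between the groups, with Hbb-y at 12.12 and 12.27 in KO hearts, against 12.41, 12.09 and 12.58 in control hearts. Hbq1b also overlapped, at 5.42 and 5.74 in KO hearts, against 5.89, 5.55 and 6.98 in control hearts. Hbb-b1, an adult-type beta-globin gene, was at 7.29 and 7.69 in KO hearts, against 9.78, 8.92 and 10.31 in control hearts, a difference of -2.18 ± 0.47 (SE), and limma gave it an adjusted p of 0.415. Whether its probes tell it from its near-identical copies was not tested, so the gene is uncertain. The erythroid mean was 5.48 and 5.58 in the KO arrays and 5.55 in control replicate 2, which was 1.23 above the higher KO array for Hbb-b1. Of these 5 genes, 5 had a lower mean in KO hearts (55.4% of all genes) and 1 lay below the controls without overlap (13.1%). All 5 were highest in control replicate 3 (21.8% of all genes). The share of red cells of each lineage in these hearts was not tested.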
